A study of Mus musculus with 22 samples.

Results

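Paclitaxel was added to the BET inhibitor JQ1 in mice carrying EMT6 tumours, and CD45-negative cells of tumours given both drugs were compared with CD45-negative cells of tumours given JQ1 without it. The comparison used 5 of the 22 RNA libraries of the study, 3 from JQ1+paclitaxel and 2 from JQ1, taken by fraction and treatment as labelled. All genes with at least 1 FPKM (fragments scaled by transcript length and library size) in at least 2 of the 12 CD45-negative libraries were tested, which kept 10780 of the 24353 genes listed. EMT6 is a mouse mammary carcinoma line. BALB/c mice aged 5 to 6 weeks received 200000 of its cells in each inguinal mammary fat pad, and drugs were started when tumours could be felt, after about 5 to 7 days. Tumours were split with beads against CD45, the leukocyte surface protein encoded by Ptprc.

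The JQ1+paclitaxel mice received JQ1 at 50 mg/kg daily by gavage and paclitaxel at 10 mg/kg intraperitoneally in 2 injections per week. The JQ1 mice received JQ1 at the same dose alone. A 3-drug group (3 libraries) received JQ1, paclitaxel and an antibody against PD-L1 at 10 mg/kg, and a JQ1+anti-PD-L1 group (2 libraries) received the same without paclitaxel. Vehicle tumours gave 2 further CD45-negative libraries. Every group with paclitaxel also had JQ1, so the effect of paclitaxel alone was not measured. The sample names carry a code and a side. Both JQ1 libraries bear 1 code, with a right and a left side, and so do both JQ1+anti-PD-L1 and both vehicle libraries, while the 3 JQ1+paclitaxel libraries bear 3 codes whose first part differs from that of the JQ1 libraries. The treatment and that first part of the code cannot be told apart, and p-values measure only the spread between these libraries, which for JQ1 may be that of 2 tumours of 1 mouse.

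JQ1 displaces BET proteins from acetylated histones and lowers the transcription of many genes that depend on them. Paclitaxel binds beta-tubulin within microtubules and stabilises them, which disturbs the mitotic spindle and can hold dividing cells in mitosis. Tumour cells that grow also draw on serine, glycine and asparagine synthesis and on the mitochondrial folate cycle, which feeds nucleotide synthesis, and the transcription factor ATF4 is known to induce many enzymes of these routes when amino acids are short or the endoplasmic reticulum is stressed.

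The libraries differed in depth. Relative to the geometric mean of the 12 CD45-negative libraries, the estimated depth was 1.45, 0.547 and 1.58 in JQ1+paclitaxel and 0.554 and 0.653 in JQ1. JQ1+paclitaxel library 2 was therefore as shallow as both JQ1 libraries. Absolute depth is unknown, since FPKM do not give read totals. Ptprc was listed at 2.67, 7.34 and 2.63 FPKM in JQ1+paclitaxel and at 4.24 and 2.41 FPKM in JQ1, and in the CD45-positive fraction at 38.6 and 40.1 FPKM in JQ1+paclitaxel and 73.2 and 51.2 FPKM in JQ1. The epithelial keratin Krt8 stood at 346, 324 and 496 FPKM in JQ1+paclitaxel and at 278 and 333 FPKM in JQ1, and the mesenchymal filament gene Vim at 803, 766 and 911 FPKM against 711 and 891 FPKM. The summed level of 12 pan-leukocyte markers was 128 to 337 FPKM in JQ1+paclitaxel and 151 to 219 FPKM in JQ1, and that of 16 macrophage and monocyte markers 1583 to 4358 FPKM against 1435 to 2265 FPKM. Both ranges overlapped, with JQ1+paclitaxel library 2 the highest in each. In bulk libraries fewer cells of a type and less RNA per cell cannot be told apart.

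With paclitaxel added to JQ1, 14 genes fell and 9 rose at a Benjamini-Hochberg adjusted p under 0.05 in limma, which is 0.213% of the 10780 genes tested (0.13% lower and 0.0835% higher). Of the 14 genes that fell, 8 encode enzymes or a transporter grouped here under amino acid and one-carbon metabolism, a group put together after their values were seen. The others that fell included the contractile genes Acta2 and Myl9, the cyclin Ccna2 and the neutrophil gene S100a9. The 9 that rose included Sema7a, Bcl3, Klf7, Tmem140 and Igfbp6. At an unadjusted p under 0.05 there were 1449 genes (13.4%), and the median difference over all genes was -0.02 on the log2(FPKM + 1) scale. The call depends on few libraries: no gene passed when either JQ1 library was left out, when 1 value per code was used, when depth was a covariate or when only these 5 libraries were fitted, and the split was 17 lower to 17 higher with median-of-ratios scaling. With a pseudocount of 5 instead of 1 the log2 differences of genes at low level shrank, to -0.56 for Aldh1l2, -0.75 for Pck2, -0.38 for Srpx2, -1.16 for S100a9, 1.02 for Sema7a, 0.60 for Il15ra and 0.67 for 3110062M04Rik.

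Asns, which makes asparagine, had 13.8, 15.0 and 20.3 FPKM in JQ1+paclitaxel and 42.4 and 50.8 FPKM in JQ1. The groups were well apart, and the log2 difference was -1.47 ± 0.23 (SE; limma adjusted p = 0.0313). Mthfd2, a dehydrogenase and cyclohydrolase of the mitochondrial folate cycle, had 8.44, 6.44 and 11.8 FPKM in JQ1+paclitaxel and 24.6 and 28.0 FPKM in JQ1. It fell by 1.50 ± 0.22 on the log2 scale (limma adjusted p = 0.0213), and its highest JQ1+paclitaxel library lay below its lower JQ1 library. Shmt2, the mitochondrial hydroxymethyltransferase that turns serine into glycine, had 26.9, 25.6 and 32.4 FPKM in JQ1+paclitaxel and 51.9 and 65.9 FPKM in JQ1 (log2 difference -1.03, limma adjusted p = 0.032). Aldh1l2, the mitochondrial formyltetrahydrofolate dehydrogenase, was low throughout, at 1.45, 1.68 and 1.22 FPKM in JQ1+paclitaxel and 4.74 and 4.28 FPKM in JQ1 (log2 difference -1.17, limma adjusted p = 0.032). All 3 of these mitochondrial folate enzymes were thus lower in each JQ1+paclitaxel library than in either JQ1 library.

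**Figure D1:**
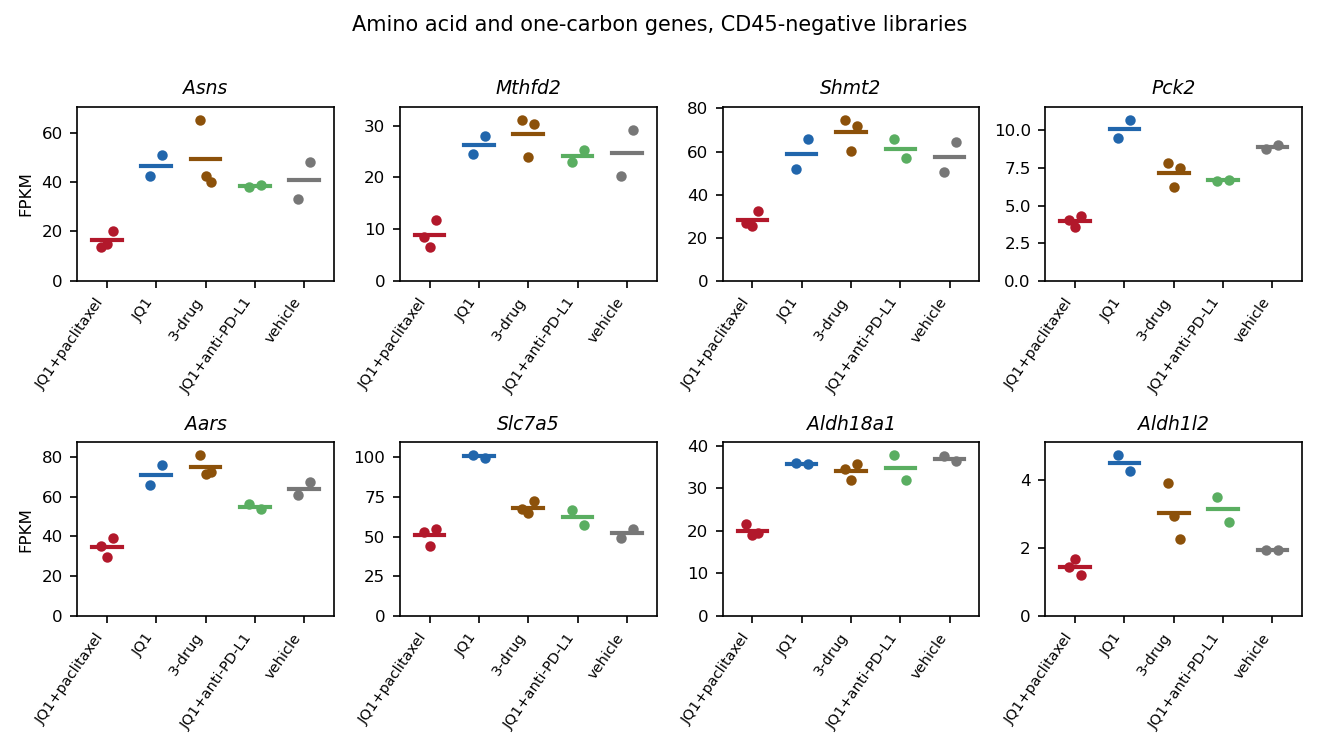
FPKM (y axis, from 0) of 8 amino acid and one-carbon genes in each CD45-negative library, with points for libraries and a bar for the group mean. In all 8 genes the 3 JQ1+paclitaxel libraries lie below both JQ1 libraries, and Asns reaches at most 20.3 FPKM in JQ1+paclitaxel against at least 42.4 FPKM in JQ1.

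The other 4 genes of this group encode a carboxykinase, a tRNA synthetase, an amino acid transporter and an enzyme of proline synthesis. Pck2, the mitochondrial phosphoenolpyruvate carboxykinase, had 4.07, 3.56 and 4.33 FPKM in JQ1+paclitaxel and 9.52 and 10.7 FPKM in JQ1 (log2 difference -1.16, limma adjusted p = 0.0209). Aars, the alanyl-tRNA synthetase, had 35.2, 29.5 and 39.1 FPKM in JQ1+paclitaxel and 66.0 and 75.9 FPKM in JQ1. Its log2 difference was -1.02 ± 0.15 (SE; limma adjusted p = 0.0209). Slc7a5, the light chain of the LAT1 transporter of large neutral amino acids, had 53.2, 44.0 and 55.1 FPKM in JQ1+paclitaxel and 101 and 99.7 FPKM in JQ1, a log2 difference of -0.98 (limma adjusted p = 0.0209). Aldh18a1, which starts proline synthesis from glutamate, had 21.5, 19.0 and 19.5 FPKM in JQ1+paclitaxel and 36.0 and 35.7 FPKM in JQ1 and showed the smallest of these differences, -0.81 (limma adjusted p = 0.0313).

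Against the vehicle libraries the 8 genes did not form 1 pattern. Asns had 33.1 and 48.2 FPKM in vehicle and Mthfd2 20.3 and 29.3 FPKM, values close to those in JQ1 and above every JQ1+paclitaxel library. Aars, Shmt2, Pck2 and Aldh18a1 likewise had vehicle values above all JQ1+paclitaxel libraries. Slc7a5 was at 49.3 and 54.8 FPKM in vehicle, inside the JQ1+paclitaxel range, so that here the JQ1 libraries stood highest. Aldh1l2 was at 1.95 and 1.93 FPKM in vehicle, also nearer to JQ1+paclitaxel.

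A longer list of ATF4 and unfolded protein stress genes had 24 tested members. Of these 4 fell (Mthfd2, Asns, Aldh1l2 and Shmt2) and none rose, 8 lay below without overlap and 4 above, and the list median was -0.18 (-0.10 without JQ1 library 2), against -0.02 for all genes. Across all genes 15.7% lay below and 12.5% above without overlap. Psat1, a serine synthesis enzyme, had 21.4, 28.1 and 33.2 FPKM in JQ1+paclitaxel and 45.2 and 58.4 FPKM in JQ1 without passing the threshold (limma adjusted p = 0.0921). Phgdh, which opens the same route, had 59.1, 61.9 and 75.6 FPKM in JQ1+paclitaxel and 92.4 and 130 FPKM in JQ1 (limma adjusted p = 0.133). By sign alone 16 of the 24 members were negative and 8 positive. The further members described here differed little or in the opposite direction. Atf4 itself had a log2 difference of 0.28, the stress factor Ddit3 -0.03 and the pseudokinase gene Trib3 -0.21, all with overlapping libraries. Hspa5, the main chaperone of the endoplasmic reticulum, had -0.30, and Dnajb9, its co-chaperone, had 15.4, 11.2 and 12.3 FPKM in JQ1+paclitaxel and 4.95 and 6.61 FPKM in JQ1 (log2 difference 1.04, limma adjusted p = 0.0852).

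The promoters of 3 of the genes that fell are shown because they hold the letters TGATGNAA, the core of the composite element bound by ATF4 with C/EBP proteins. The search covered both strands of the 250 bases before each RefSeq start in GRCm38.p6. The letters occurred in 1134 of 32851 windows (3.45%) and in 201 of the 8238 tested genes with a window (2.44%). They were in 3 of the 11 genes with a window that fell (27.3%) and in 0 of the 8 with a window that rose. All 3 are among the 6 amino acid and one-carbon genes with a window, a group put together after the values were seen. In the ATF4 and unfolded protein stress list 6 of 23 members held them (26.1%). Each line gives bases -130 to -1 on the strand of the gene, with the matched letters in capitals; in Aars and Pck2 the match lies on the opposite strand. The windows are chr6:7693210-7693339 (Asns, minus strand), chr8:111033712-111033841 (Aars, plus strand) and chr14:55540136-55540265 (Pck2, plus strand).
Asns: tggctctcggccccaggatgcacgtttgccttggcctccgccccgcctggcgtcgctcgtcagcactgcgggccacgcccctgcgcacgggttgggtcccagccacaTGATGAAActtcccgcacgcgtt
Aars: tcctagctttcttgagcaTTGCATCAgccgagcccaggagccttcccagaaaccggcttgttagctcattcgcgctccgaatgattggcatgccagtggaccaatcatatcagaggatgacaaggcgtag
Pck2: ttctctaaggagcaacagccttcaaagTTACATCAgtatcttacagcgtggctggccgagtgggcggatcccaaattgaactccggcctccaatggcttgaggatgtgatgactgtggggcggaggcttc
The match spans bases -23 to -16 in Asns, -112 to -105 in Aars and -103 to -96 in Pck2. These are matches of letters in RefSeq sequence, and binding was not measured in these libraries.

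A pair of contractile cytoskeleton genes was among the largest decreases. Acta2, smooth muscle alpha-actin, had 89.0, 60.8 and 62.7 FPKM in JQ1+paclitaxel and 171 and 201 FPKM in JQ1 (log2 difference -1.40 ± 0.22, limma adjusted p = 0.0313). Myl9, a regulatory myosin light chain, had 14.7, 7.48 and 10.4 FPKM in JQ1+paclitaxel and 30.3 and 51.5 FPKM in JQ1, a log2 difference of -1.82 ± 0.31 (limma adjusted p = 0.032). Vehicle libraries were higher still, at 250 and 257 FPKM for Acta2 and 84.9 and 92.0 FPKM for Myl9. Both genes are known targets of SRF, and of a list of 21 SRF and YAP targets these 2 fell and none rose. In that list 20 members had a negative difference, and the median was -0.41. Without overlap 11 lay below and 1 above, against 15.7% and 12.5% of all genes. Ajuba, a LIM protein of cell junctions, had 8.85, 10.6 and 5.90 FPKM in JQ1+paclitaxel and 16.7 and 19.0 FPKM in JQ1 (limma adjusted p = 0.107). The summed level of 11 pericyte and smooth muscle markers was 30.4 to 65.5 FPKM in JQ1+paclitaxel and 27.1 to 45.1 FPKM in JQ1. That of 22 fibroblast and matrix markers was 2187 to 4273 FPKM against 2924 to 3569 FPKM, and both ranges overlapped. Only 4 of the 11 pericyte and smooth muscle markers were abundant enough to be tested. The part of cell content in the Acta2 and Myl9 differences was not tested.

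The CArG box, the motif bound by SRF, was searched only as an exact match of 10 bases, with nothing but A or T between CC and GG. Such a match was found in the Myl9 window and not in that of Acta2. Variants with another base were not searched, so the absence in Acta2 holds for this strict form only. It occurred in 482 of 32851 windows (1.47%), in 117 of the 8238 tested genes with a window (1.42%) and in 5 of 17 members of the SRF and YAP list (29.4%). The stretch from bases -200 to -101 of Myl9, at chr2:156775264-156775363 on the plus strand of GRCm38.p6, is shown from RefSeq with the box in capitals.
Myl9: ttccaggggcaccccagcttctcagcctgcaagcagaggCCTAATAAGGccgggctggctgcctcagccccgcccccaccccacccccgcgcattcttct
The box reads as a match on both strands, at bases -161 to -152. The letters TGATGNAA were in neither the Myl9 nor the Acta2 window.

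Cell cycle genes were lower in JQ1+paclitaxel, though of those described here only Ccna2 passed the test. Ccna2, the cyclin of S and G2 phase, had 11.3, 10.1 and 8.93 FPKM in JQ1+paclitaxel and 23.3 and 27.3 FPKM in JQ1 and fell by 1.24 ± 0.17 on the log2 scale (limma adjusted p = 0.0209). Vehicle libraries had 20.2 and 20.1 FPKM of Ccna2, so the JQ1+paclitaxel libraries lay below both vehicle and JQ1. In a list of 32 genes of G2 phase and mitosis none passed, yet all 32 differences were negative, with a median of -0.57. Without overlap 29 members lay below and 0 above, against 15.7% and 12.5% of all genes. The smallest difference of the list was -0.20. Plk1, a kinase that drives mitosis, had 7.27, 6.44 and 7.34 FPKM in JQ1+paclitaxel and 14.5 and 13.5 FPKM in JQ1 (log2 difference -0.90, limma adjusted p = 0.108). Aurka, a spindle pole kinase, had 8.56, 7.26 and 7.70 FPKM against 13.3 and 15.5 FPKM (limma adjusted p = 0.0723). Cdc20, the activator of the anaphase-promoting complex, had 43.1, 33.8 and 33.7 FPKM in JQ1+paclitaxel and 41.4 and 60.7 FPKM in JQ1, with overlap.

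In a list of 32 DNA replication and S phase genes none passed, and the median was -0.53. Without overlap 23 lay below and 0 above, against 15.7% and 12.5% of all genes. Mcm6, a subunit of the replicative helicase, had 23.9, 24.2 and 24.6 FPKM in JQ1+paclitaxel and 37.9 and 38.1 FPKM in JQ1 (limma adjusted p = 0.0627). Chaf1a, a chromatin assembly subunit, had 7.03, 6.99 and 5.98 FPKM in JQ1+paclitaxel and 12.9 and 13.8 FPKM in JQ1 (limma adjusted p = 0.0718). By comparison, 31 ribosomal protein genes had a median of -0.01 and 34 respiratory chain genes a median of 0.03, so the negative medians of the cell cycle lists were not shared by these abundant transcripts. The lists overlap in biology with each other, and genes of a list are not independent of one another.

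**Figure D2:**
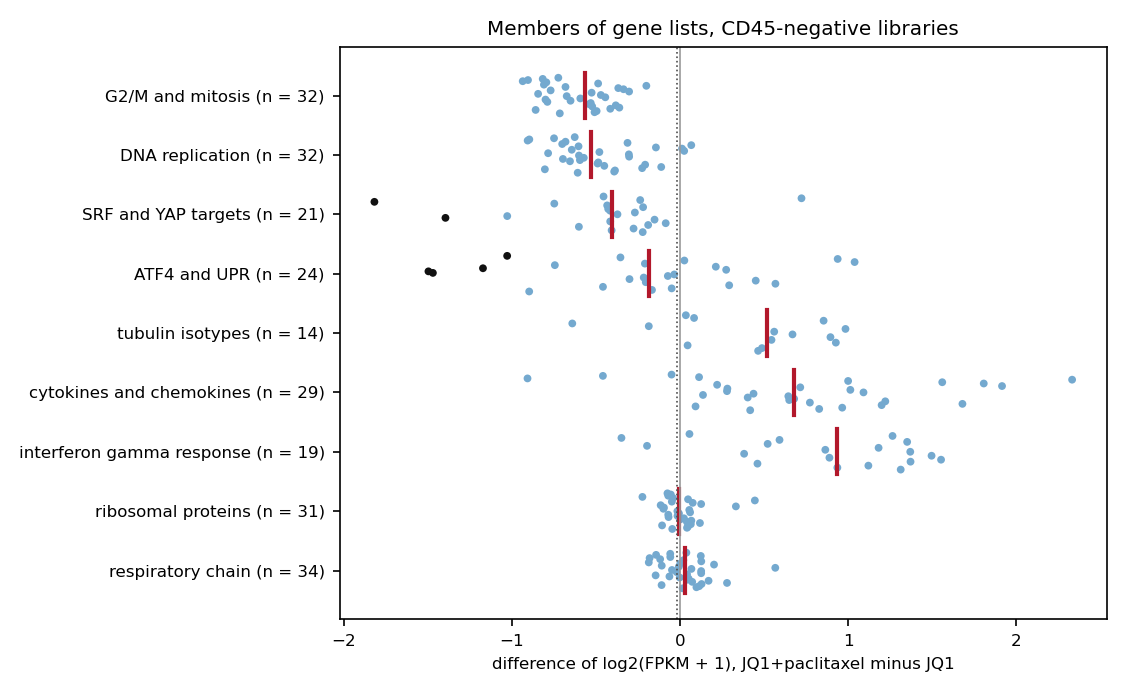
Each point is the difference of log2(FPKM + 1) of 1 tested gene, JQ1+paclitaxel minus JQ1 (x axis), by gene list (y axis, with the number tested); black points passed the threshold, red bars are list medians, the solid line is 0 and the dotted line the median of all genes. The G2 and mitosis genes all lie below 0 with a median of -0.57, while the tubulin, cytokine and interferon gamma medians are 0.52, 0.68 and 0.94.

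Tubulin genes, which encode the proteins paclitaxel acts on, were higher in most members. Of 14 tubulin genes tested none passed, and 9 lay above without overlap and 2 below, against 12.5% and 15.7% of all genes. The median difference was 0.52, which became 0.34 without JQ1 library 1 and 0.77 without JQ1 library 2. Tuba1a had 906, 902 and 936 FPKM in JQ1+paclitaxel and 404 and 571 FPKM in JQ1, against 615 and 634 FPKM in vehicle (log2 difference 0.93 ± 0.19, limma adjusted p = 0.0723). Tubb5, the main beta-tubulin of dividing cells, had 276, 280 and 309 FPKM in JQ1+paclitaxel and 148 and 170 FPKM in JQ1 (limma adjusted p = 0.0852). Tubb2b had 54.8, 52.2 and 58.5 FPKM in JQ1+paclitaxel and 25.4 and 29.4 FPKM in JQ1 (limma adjusted p = 0.0627). For Tuba1a and Tubb5 the JQ1+paclitaxel libraries were the highest of all 12 libraries, and the 3 libraries lay close together. Tube1, the epsilon-tubulin of centrioles, had a difference of -0.64. Among 18 regulators of microtubules the median was -0.09. Tubulins share long stretches of sequence, so their split into isotypes depends on how shared reads were assigned.

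**Figure D3:**
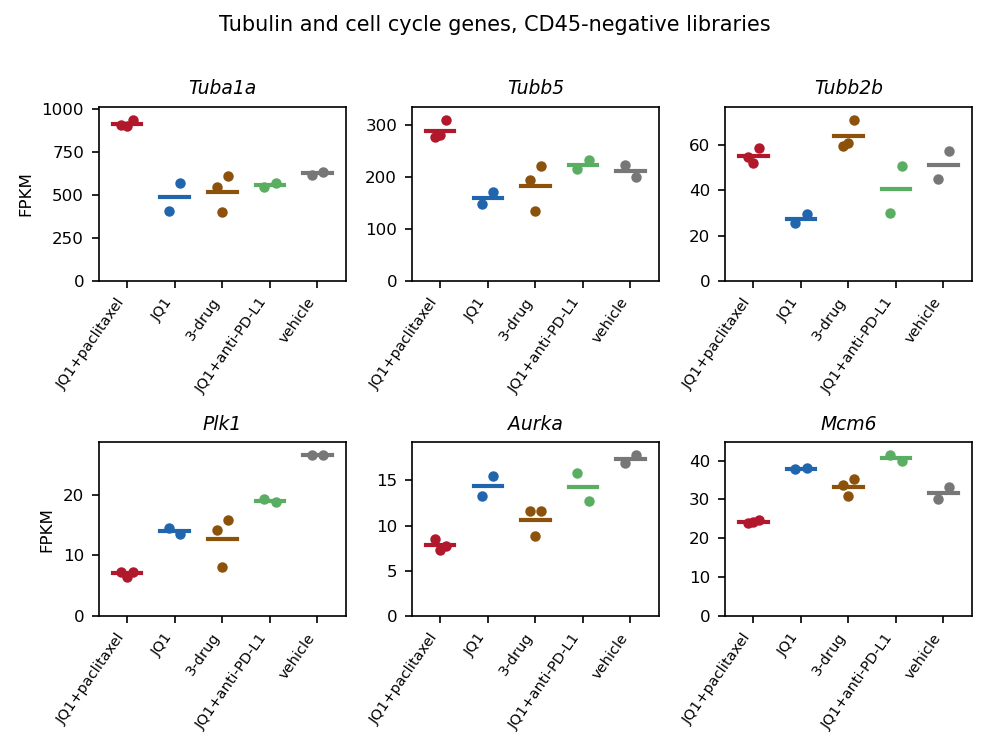
FPKM (y axis, from 0) of 3 tubulin and 3 cell cycle genes in each CD45-negative library, points for libraries and bars for group means. Tuba1a lies at 902 to 936 FPKM in the 3 JQ1+paclitaxel libraries and at 404 and 571 FPKM in the 2 JQ1 libraries, whereas Plk1, Aurka and Mcm6 are lower in every JQ1+paclitaxel library than in either JQ1 library.

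The genes that rose were of mixed function. Sema7a, a membrane-anchored semaphorin, had 8.97, 6.33 and 12.8 FPKM in JQ1+paclitaxel, 1.80 and 2.15 FPKM in JQ1 and 1.28 and 1.77 FPKM in vehicle, and rose by 1.75 ± 0.24 on the log2 scale (limma adjusted p = 0.0209). It is one of the genes whose JQ1 level was close to vehicle and whose JQ1+paclitaxel level stood above both. Bcl3, a nuclear partner of NF-kappaB, had 12.5, 19.3 and 27.3 FPKM in JQ1+paclitaxel and 5.90 and 5.31 FPKM in JQ1 (log2 difference 1.58, limma adjusted p = 0.0313). Its vehicle libraries had 25.7 and 19.7 FPKM, so for Bcl3 the JQ1 libraries were the low ones. Klf7, a zinc finger transcription factor, had 15.2, 13.7 and 20.5 FPKM in JQ1+paclitaxel, 5.18 and 6.26 FPKM in JQ1 and 19.3 and 22.5 FPKM in vehicle (log2 difference between the first 2 groups 1.37, limma adjusted p = 0.032). The mean of JQ1+paclitaxel exceeded that of vehicle in 7 of the 9 genes that rose and lay below it in all 14 that fell.

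Igfbp6, a secreted binder of insulin-like growth factors, was the most abundant gene that rose, with 280, 300 and 309 FPKM in JQ1+paclitaxel and 124 and 167 FPKM in JQ1 (log2 difference 1.03, limma adjusted p = 0.0313). Tmem140, a transmembrane protein gene, had 14.9, 14.8 and 12.2 FPKM in JQ1+paclitaxel and 4.58 and 5.09 FPKM in JQ1 (log2 difference 1.35, limma adjusted p = 0.0209). Il15ra, the alpha chain of the interleukin 15 receptor, had 2.48, 4.21 and 5.41 FPKM in JQ1+paclitaxel and 1.09 and 0.745 FPKM in JQ1 (log2 difference 1.35, limma adjusted p = 0.0337). Each of these genes kept the JQ1+paclitaxel libraries above both JQ1 libraries. Itpkc, an inositol trisphosphate kinase, rose by 1.30, and the 2 remaining genes are clones, 3110062M04Rik with 1.05 and C130026I21Rik with 0.94. Just outside the threshold were Pdgfra, a receptor of platelet-derived growth factor, at an adjusted p of 0.0521, and Mgst3, a microsomal glutathione transferase, at 0.0557 (both limma).

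**Figure D4:**
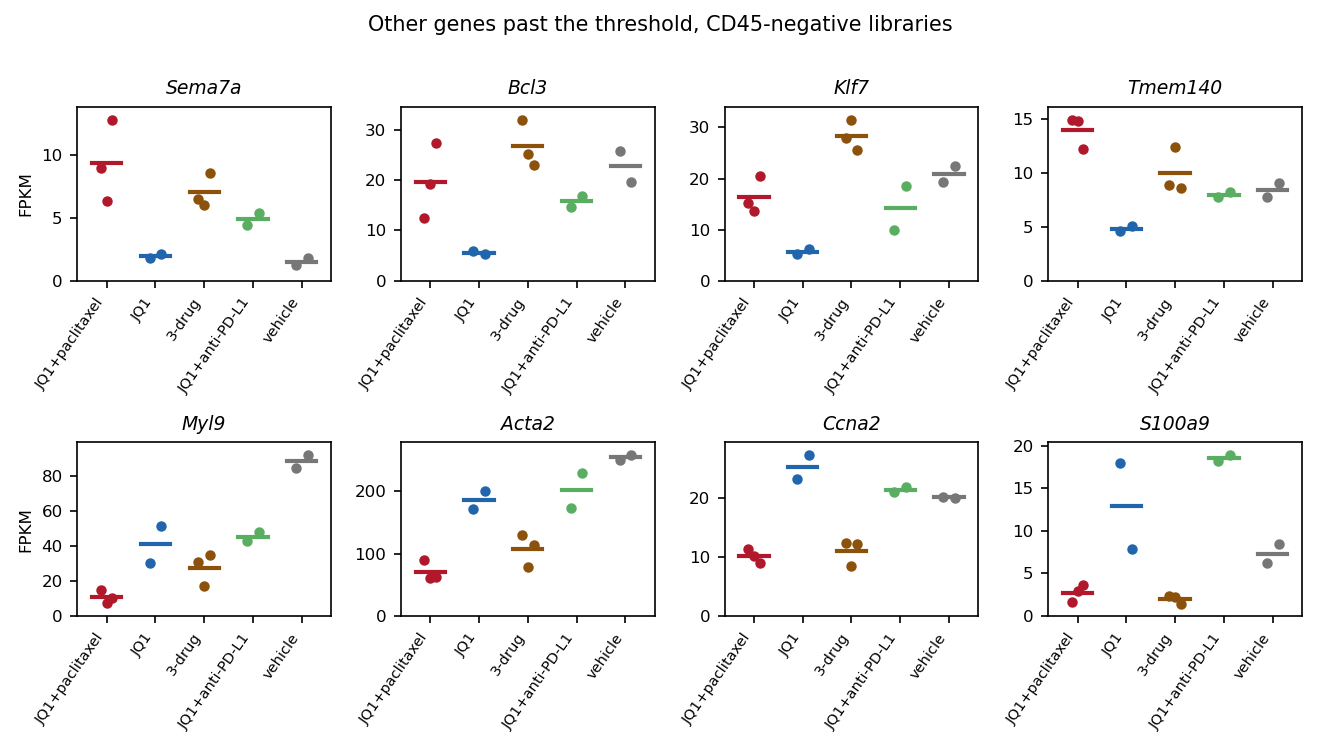
FPKM (y axis, from 0) of 4 genes that rose (top) and 4 that fell (bottom) in each CD45-negative library, points for libraries and bars for group means. Sema7a is at 6.33 FPKM or more in JQ1+paclitaxel and at 2.15 FPKM or less in JQ1, and Ccna2 and S100a9 are low in both groups with paclitaxel.

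S100a9, Eno3 and Srpx2 also fell. S100a9, a calcium-binding protein of neutrophils and some monocytes, had 1.59, 2.96 and 3.67 FPKM in JQ1+paclitaxel and 17.9 and 7.83 FPKM in JQ1 (log2 difference -1.83 ± 0.31, limma adjusted p = 0.032). Its partner S100a8 had 6.38, 7.18 and 5.91 FPKM in JQ1+paclitaxel and 12.4 and 6.63 FPKM in JQ1, with overlap. The summed level of 12 neutrophil markers was 8.90 to 10.9 FPKM in JQ1+paclitaxel and 15.1 to 32.9 FPKM in JQ1, most of it from these 2 genes, and only 5 of the 12 were abundant enough to be tested, of which S100a9 was the 1 that fell. Camp was listed at 0 in all 5 libraries and Cxcr2 in the 3 JQ1+paclitaxel libraries. The part of remaining neutrophil RNA in the S100a9 difference was not tested. Eno3, the muscle enolase, had 25.6, 27.9 and 31.8 FPKM in JQ1+paclitaxel, 59.6 and 64.6 FPKM in JQ1 and 98.1 and 107 FPKM in vehicle (log2 difference of the first 2 groups -1.10, limma adjusted p = 0.0209). Srpx2, a secreted sushi-repeat protein, was close to the detection filter at 0.441, 0.738 and 0.448 FPKM in JQ1+paclitaxel and 2.34 and 2.10 FPKM in JQ1 (log2 difference -1.07, limma adjusted p = 0.0337).

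Interferon gamma response genes were higher in JQ1+paclitaxel in most members, with wide spread. None of 19 tested members passed, and the median was 0.94 (0.62 without JQ1+paclitaxel library 3). Without overlap 14 lay above and 0 below, against 12.5% and 15.7% of all genes. Gbp2, an interferon-induced GTPase, had 103, 129 and 188 FPKM in JQ1+paclitaxel and 58.9 and 65.0 FPKM in JQ1 (log2 difference 1.12, limma adjusted p = 0.071). Cd274, which encodes PD-L1, had 3.17, 5.84 and 8.54 FPKM in JQ1+paclitaxel and 1.62 and 1.78 FPKM in JQ1 (log2 difference 1.27 ± 0.49, limma adjusted p = 0.293). The transcription factor genes Irf1 and Irf8 had differences of -0.20 and -0.35. Of 16 MHC class I presentation genes 8 lay above without overlap and none below, at a median of 0.19.

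Of 29 tested cytokines and chemokines none passed, and the median was 0.68. Without overlap 13 lay above and 2 below, against 12.5% and 15.7% of all genes. Csf3, which encodes the granulocyte growth factor G-CSF, had 9.77, 18.8 and 105 FPKM in JQ1+paclitaxel and 5.05 and 4.18 FPKM in JQ1 (log2 difference 2.33 ± 0.69, limma adjusted p = 0.164). Cxcl5, a chemokine that attracts neutrophils, had 15.8, 13.5 and 61.1 FPKM in JQ1+paclitaxel and 4.27 and 7.15 FPKM in JQ1 (limma adjusted p = 0.133). The epidermal growth factor ligand gene Areg had 39.5, 41.6 and 118 FPKM against 15.0 and 24.4 FPKM (limma adjusted p = 0.188). In these 3 genes JQ1+paclitaxel library 3 was above the other JQ1+paclitaxel libraries, and the list median was 0.39 without that library and 0.97 without library 1. Ccl11, eotaxin, was lower, at 1.58, 1.68 and 1.81 FPKM in JQ1+paclitaxel and 3.99 and 4.09 FPKM in JQ1 (limma adjusted p = 0.162). The summed level of the list was 2056 to 4202 FPKM in JQ1+paclitaxel, 2125 to 2278 FPKM in JQ1 and 3208 to 4171 FPKM in vehicle. The JQ1+paclitaxel range thus overlapped both others, and the JQ1 libraries lay below vehicle.

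Genes of the p53 response and of cell death differed in part of their members. Of 23 tested p53 targets none passed, and the median was 0.12. Without overlap 8 lay above and 1 below, against 12.5% and 15.7% of all genes. Cdkn1a, the inhibitor p21, had 86.4, 104 and 138 FPKM in JQ1+paclitaxel and 59.9 and 62.9 FPKM in JQ1 (limma adjusted p = 0.141). Bbc3, which encodes the pro-apoptotic protein PUMA, had 17.3, 12.3 and 12.3 FPKM in JQ1+paclitaxel and 4.69 and 7.74 FPKM in JQ1 (limma adjusted p = 0.135), and Gdf15 was lower with 9.58, 9.80 and 15.1 FPKM against 24.5 and 16.0 FPKM. Of 14 Bcl2 family genes 6 lay above and 1 below without overlap. Bcl2a1d had 5.43, 12.8 and 13.6 FPKM in JQ1+paclitaxel and 1.91 and 3.17 FPKM in JQ1 (limma adjusted p = 0.0723). It has near-identical copies, Bcl2a1a and Bcl2a1b, so its value is uncertain where the counting could split reads between them.

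Of 10 tested genes for BET proteins or reporters of BET inhibition none passed, and the median was -0.03. Without overlap 2 lay above and 3 below, against 12.5% and 15.7% of all genes. Hexim1, which BET inhibitors raise, had 3.67, 4.70 and 3.24 FPKM in JQ1+paclitaxel and 4.08 and 3.34 FPKM in JQ1, against 0.768 and 1.38 FPKM in vehicle. Both JQ1-treated groups were thus above vehicle. Brd2, which encodes a BET protein, had a difference of -0.52 ± 0.30. Myc had 93.9, 85.2 and 111 FPKM in JQ1+paclitaxel and 44.2 and 67.1 FPKM in JQ1, without overlap (log2 difference 0.81 ± 0.35, limma adjusted p = 0.346), and 26 MYC targets and ribosome biogenesis genes had a median of -0.09. Abcb1a, the drug efflux pump known to export paclitaxel, had 0.973, 0.293 and 1.30 FPKM in JQ1+paclitaxel and 0.586 and 0.161 FPKM in JQ1, with overlap.

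Paclitaxel was also added to JQ1+anti-PD-L1, in libraries that share none with the comparison above. There 108 of the 10780 genes passed (1%), 64 higher (0.594%) and 44 lower (0.408%). This count was 7 with 1 value per code, and with 1 library left out it ranged from 1 (without JQ1+anti-PD-L1 library 1) to 235 (without JQ1+paclitaxel library 3), with 4 without 3-drug library 2. Of the 9 genes that rose with paclitaxel on JQ1, all 9 had a positive difference on JQ1+anti-PD-L1, where 43.1% of all genes did, and 2 passed, Igfbp6 (1.04, limma adjusted p = 0.0238) and Itpkc (1.06, limma adjusted p = 0.0443). Of the 14 that fell, 8 had a negative difference there, where 56.9% of all genes did, and 2 passed, Ccna2 (-0.92, limma adjusted p = 0.0388) and S100a9 (-2.70, limma adjusted p = 0.00286). S100a9 had 2.40, 2.29 and 1.42 FPKM in the 3-drug group and 18.2 and 18.9 FPKM in JQ1+anti-PD-L1. Myl9 and Acta2 had differences of -0.75 and -0.91 without passing (limma adjusted p = 0.274 and 0.0693).

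The differences of the 8 amino acid and one-carbon genes on JQ1+anti-PD-L1 ran from -0.05 for Aldh1l2 to 0.44 for Aars, and none passed. Aars had 80.8, 71.5 and 72.3 FPKM in the 3-drug group and 56.0 and 53.6 FPKM in JQ1+anti-PD-L1. The difference between the 2 paclitaxel effects was -1.46 ± 0.21 (SE) for Aars with a limma adjusted p of 0.0533, and -1.79 for Asns and -1.72 for Mthfd2 at an adjusted p of 0.162 each. This test of the difference passed for 1 of the 10780 genes (0.00928%), and for none of the 23, so their effects were not shown to differ between the settings. The median over the ATF4 and unfolded protein list was -0.18 on JQ1 and 0.25 on JQ1+anti-PD-L1, where 4 members rose and none fell. These were Trib3 (1.65), Chac1 (3.81), Sesn2 (1.44) and Herpud1 (1.19), at limma adjusted p of 0.0309 to 0.0377, and the test of the difference passed for none of them. The tubulin medians were 0.52 on JQ1 and -0.08 on JQ1+anti-PD-L1, those of interferon gamma genes 0.94 on JQ1 and 1.19 on JQ1+anti-PD-L1, and those of the G2 and mitosis list -0.57 on JQ1 and -0.33 on JQ1+anti-PD-L1.

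**Figure D5:**
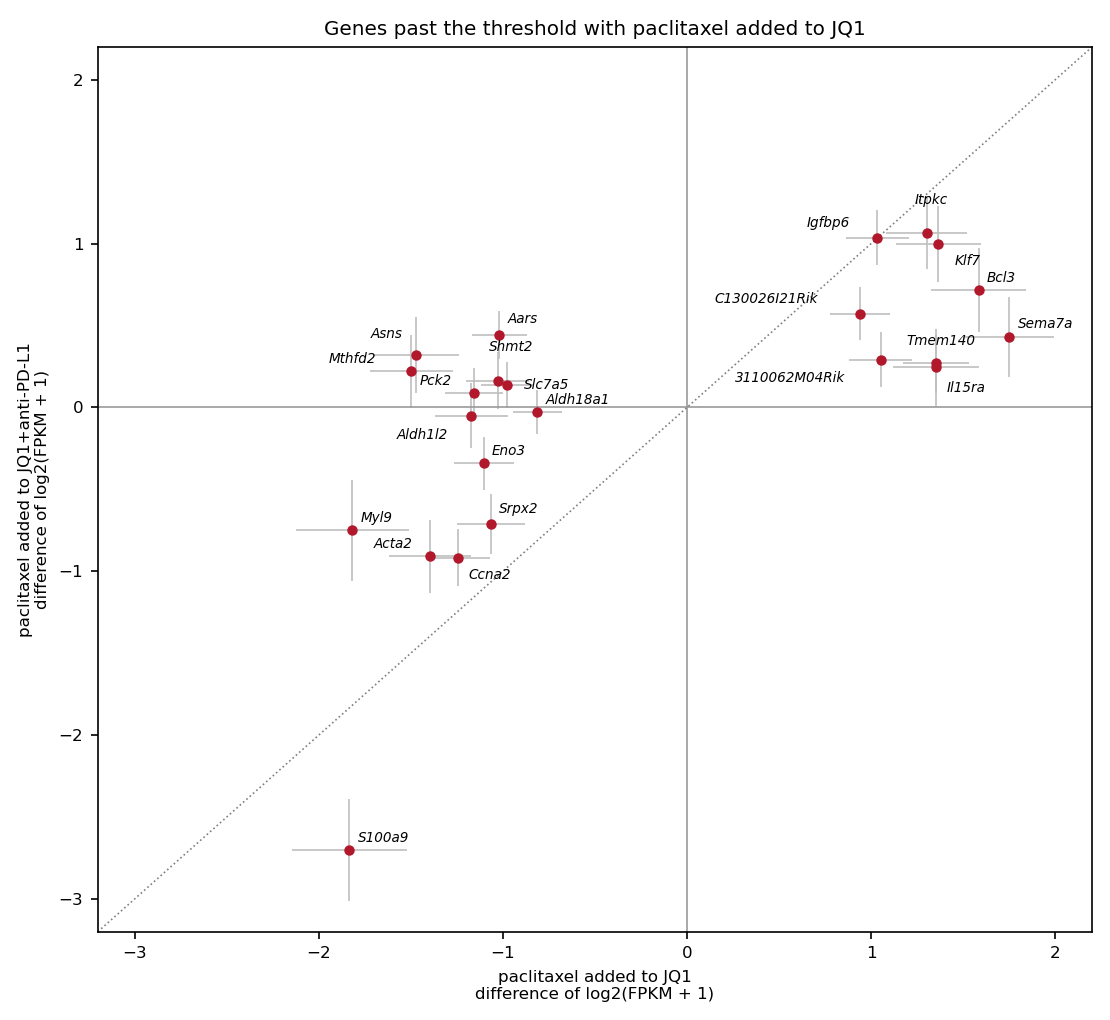
Differences of log2(FPKM + 1) when paclitaxel was added to JQ1+anti-PD-L1 (y axis, 3-drug minus JQ1+anti-PD-L1) against those when it was added to JQ1 (x axis, JQ1+paclitaxel minus JQ1) for the 23 genes past the threshold on the x axis, which chose them; bars are standard errors and the dotted line marks equal values. The 8 amino acid and one-carbon genes lie between -0.05 and 0.44 on the y axis, the highest being Aars. S100a9 (-2.70), Ccna2 (-0.92) and Igfbp6 (1.04) are displaced in both settings.

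CD45-positive cells, enriched for leukocytes, gave 2 libraries for each of the groups. By code and side, those of JQ1+paclitaxel came from the tumours of CD45-negative libraries 1 and 3. No CD45-positive library came from the tumours of CD45-negative JQ1+paclitaxel library 2 or 3-drug library 3. In the CD45-positive fraction no gene passed for JQ1+paclitaxel against JQ1 in limma (0%). At an unadjusted limma p under 0.05 there were 1038 of 10340 genes (10%). Of the 14 genes that fell in CD45-negative cells 12 were tested in that fraction and 10 had a negative difference. Of the 9 that rose 6 of 9 had a positive one. The median of the genes tested in both fractions was -0.09, so negative differences were the more common there. The share of all genes with each sign was not counted, and these counts are not read as agreement between the fractions. Mthfd2 had a difference of -0.83 in CD45-positive cells (limma adjusted p = 0.21) and Asns of -0.44 (limma adjusted p = 0.664). Acta2 and Myl9 had positive differences there, 1.09 and 1.47, at limma adjusted p of 0.572 and 0.408. In that fraction the summed pericyte and smooth muscle markers were 48.7 to 53.6 FPKM in JQ1+paclitaxel and 13.0 to 24.2 FPKM in JQ1. Fibroblast and matrix markers summed to 361 to 519 FPKM against 94.4 to 225 FPKM, and pan-leukocyte markers to 1452 to 1587 FPKM against 1934 to 2273 FPKM. The part of cell content in these differences was not tested. The tubulin median was 0.84 in CD45-positive cells, and Tuba1a had a difference of 0.90 (limma adjusted p = 0.129). The 2 fractions were normalised separately and were not tested against each other.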

How the data were processed

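RNA of CD45-negative and CD45-positive EMT6 tumour cells was sequenced from low-input libraries. The submitters' processing notes name STAR 2.5.1b and the build mm9. How the gene values were made from the alignments is not given in the sources used here. Both deposited tables hold FPKM per gene symbol, a unit inferred from their values, and their column sums were 296682 to 370513 in the CD45-negative table. Of 24353 symbols 23723 matched a current mouse symbol and 553 a synonym. Library depths relative to each other were read from the steps between low FPKM values. Read totals are unknown, so no counting intervals were given and count models were not used.

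In 1 limma model (limma 3.58.1, R 4.3.3) with a mean-variance trend, log2(FPKM + 1) of all 12 CD45-negative libraries in 5 groups was fitted (7 residual degrees of freedom, 12.8 after moderation). Fold changes on this scale understate changes of low genes. Tests were two-sided and adjusted over all 10780 genes. CD45-positive libraries (10340 genes) were fitted alike. Lists were described by counts and medians, without tests. The members and the 42 gene lists were chosen with earlier results of these data known.

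Named genes were the 12 highest and 12 lowest changes past an adjusted p of 0.05 whose mean log2(FPKM + 1) reached 2 and whose libraries did not overlap, clones passed over, filled to 12 by smallest p. Up to 3 members past the threshold per list, or else the 2 most abundant, and Hexim1, Myc, Cd274, Ptprc, Abcb1a, Abcb1b, Tubb5, Cdkn1a and Plk1 were added. Of the genes this rule names, 1 is not reported here. Genes named beyond this rule, such as Aldh1l2, Srpx2, Il15ra, the 2 clones and further list members, were chosen after their values were seen. Promoter windows came from RefSeq for GRCm38.p6, not from the build of the alignment. Alternatives were other pseudocounts, filters and scalings, depth as a covariate, 1 value per code, only the compared groups, no trend, and leaving out each library. Figures were drawn with Python 3.11.15 and matplotlib 3.10.9.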

Additional observations from a re-analysis of the deposited data

Results flagged for a closer look

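The effect of paclitaxel differed between its addition to JQ1 and its addition to JQ1+anti-PD-L1 for 1 gene, Snora21, a small nucleolar RNA (difference of the 2 effects 3.58 ± 0.26 SE on the log2(FPKM + 1) scale, limma adjusted p = 5.57e-05). Snora21 was listed at 0 in all 3 JQ1+paclitaxel, both JQ1, all 3 3-drug and both vehicle libraries and at 8.99 and 13.3 FPKM in the JQ1+anti-PD-L1 libraries. The difference thus rests on these 2 libraries, which bear 1 code. With a pseudocount of 0.1 no gene passed this test.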

How the results depend on the processing

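None of the 23 genes past the threshold changed sign under any of 22 alternatives. Their number changed. It was 8 with no filter on low values, 45 with quantile normalization (24 lower, 21 higher) and 0 with only the compared groups (1185 genes at an unadjusted p under 0.05), with relative depth as a covariate (1110) or with 1 value per code (635). Leaving out 1 library gave 0 to 45 genes, 0 without either JQ1 library (1048 and 1258 unadjusted), 11 without JQ1+paclitaxel library 3, 45 without library 1 and 15 and 35 without 3-drug libraries 1 and 2. With 1 JQ1 library left, it is assumed to vary like the other groups. For paclitaxel on JQ1+anti-PD-L1 the 108 genes became 59 with a pseudocount of 0.1, 33 with no filter, 7 with 1 value per code, 65 with no trend and 1 to 235 when 1 library was left out. The difference of the 2 effects gave 0 genes with a pseudocount of 0.1, 2 with no filter, 2 with median-of-ratios, 2 with quantile normalization, 7 with the depth covariate and 1 to 4 when 1 library was left out. In CD45-positive cells there were 42 genes with a pseudocount of 5, 4 with no filter and 0 to 61 when 1 library was left out. The cause of these changes was not tested. Without JQ1+paclitaxel library 2, Hexim1 turned to -0.077 and Ptprc to -0.21, and without JQ1 library 2 to -0.071 and -0.12 (highest values with 1 library left out 0.16 and 0.50). List medians kept their sign, with ranges of -0.73 to -0.44 for G2 and mitosis, -0.64 to -0.33 for DNA replication, 0.34 to 0.77 for tubulins, -0.21 to -0.10 for ATF4 and unfolded protein stress, -0.43 to -0.26 for SRF and YAP targets, 0.39 to 0.97 for cytokines and 0.61 to 1.13 for interferon gamma. No paired analysis was possible because the labels carry no replicate numbers shared between the groups.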
